A study of Homo sapiens with 6 samples.

Results

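The genes that encode the cyclin-dependent kinase (CDK) inhibitors of the INK4 and CIP families were followed in thyroid cancer cells after knockdown of GDF15, a secreted stress-response cytokine. They were taken by gene name from the deposited table: CDKN1A (p21), CDKN1B (p27) and CDKN1C (p57) of the CIP family, and CDKN2A (p16INK4a and ARF), CDKN2B (p15), CDKN2C (p18) and CDKN2D (p19INK4d) of the INK4 family. These are 7 of 34738 genes. All 7 were among the 11867 genes tested, which had a mean of at least 1 FPKM over the 6 libraries. FPKM counts fragments relative to the length of the transcript and to the mapped fragments of the library, so its levels can be compared between genes. Poly(A) RNA of KHM-5M cells, labelled as a thyroid cancer cell line, was sequenced in 3 libraries of the siGDF15 group and 3 of the control group (NC). The siGDF15 cells received an siRNA against GDF15, and the study lists a single sequence for it. What the NC cells received is described in different ways: as a negative control, for which an siRNA is listed, as a vector control in a legend, and as a blank in the deposited design. For untransfected NC cells, effects of transfection and of the knockdown cannot be told apart. A legend of the study also names another thyroid cancer line, TPC-1, for the sequenced cells. The time from transfection to harvest is not given in the sources used here. The study calls the replicates biological, with no statement of separate cultures, so the p-values measure the spread between these libraries.

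The targeted gene followed the labels. GDF15 stood at 22.4, 19.3 and 23.1 FPKM in NC and at 10.8, 10.5 and 10.7 FPKM in siGDF15, and its log2 fold change was -0.92 with a standard error of 0.079 (adjusted p = 2.4e-05 from edgeR). Libraries held 51738814 to 68025163 counts, lowest in siGDF15 replicate 2. Mitochondrially encoded genes took 6.39 to 6.78% of counts in NC and 8.53 to 9.17% in siGDF15. The TMM scaling factors also differed by group, at 1.03 to 1.04 in NC and 0.958 to 0.972 in siGDF15. With the mitochondrial genes left out, the calls on all 7 inhibitor genes were the same. Of 7 thyroid follicular cell markers, PAX8 and FOXE1 reached 1 FPKM, while the other 5, among them TG, SLC5A5, NKX2-1 and DUOX2, averaged under 0.2 FPKM in both groups. The summed level of the 7 was 56.9 to 67.9 FPKM in NC and 80.3 to 83.6 FPKM in siGDF15. Nearly all of it was PAX8, with means of 59.1 FPKM in NC and 79.4 FPKM in siGDF15. FOXE1 had means of 2.76 and 2.83 FPKM and was not called. All 5 epithelial markers averaged at least 1 FPKM over the 6 libraries, as did all 3 mesenchymal markers and 3 of 4 fibroblast markers, while no marker of leukocytes (4 genes) or endothelial cells (3 genes) did. The mesenchymal markers summed to 749 to 808 FPKM in NC and 818 to 860 FPKM in siGDF15, above the epithelial markers at 102 to 149 and 126 to 136 FPKM. Of the epithelial markers only CDH1 was called, with a log2 fold change of 0.61 (adjusted p = 0.049 from edgeR) and overlapping libraries. Among the mesenchymal markers FN1 rose by 0.47 on the log2 scale. VIM and CDH2 had log2 fold changes of -0.067 and -0.11 and were not called, with lower FPKM in every siGDF15 library than in any NC library. The higher mesenchymal sum was thus that of FN1. The part of these levels in the results was not tested.

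Progress from G1 into S phase is driven by cyclin D with CDK4 or CDK6 and by cyclin E or A with CDK2, which phosphorylate the retinoblastoma protein and its relatives. INK4 proteins bind CDK4 and CDK6 and keep cyclin D away from them. CIP proteins bind the assembled cyclin-CDK complexes, above all those of CDK2, and p21 is induced in arrest and senescence. The table's pathway annotation puts all 7 genes in the KEGG cell cycle pathway. The products of CDKN2A and CDKN2B accumulate in senescent cells, and the locus that holds both genes is lost in many tumours.

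The inhibitor genes did not move as a block. Of the 7 genes, 4 rose (CDKN1A, CDKN1B, CDKN2A and CDKN2B), 2 fell (CDKN2C and CDKN2D), and CDKN1C did not pass the test. Calls were made at an adjusted p under 0.05 from edgeR. The same call was made for 61.4% of all tested genes, with 30.0% higher and 31.4% lower in siGDF15, so a count of 6 of 7 members is to be read against a background in which most genes were called. The log2 fold changes of the members ran from -0.77 to 2.21 with a median of 0.27, beside a median of 0.0026 over all tested genes. Only CDKN2B also passed a log2 fold change of 1, which 7.81% of tested genes did in either direction. The libraries of both groups did not overlap for 6 of the 7 genes, as for 68.4% of all tested genes. In RNA of whole cultures, a change in the share of cells that express a gene and a change in RNA per cell cannot be told apart.

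**Figure D1:**
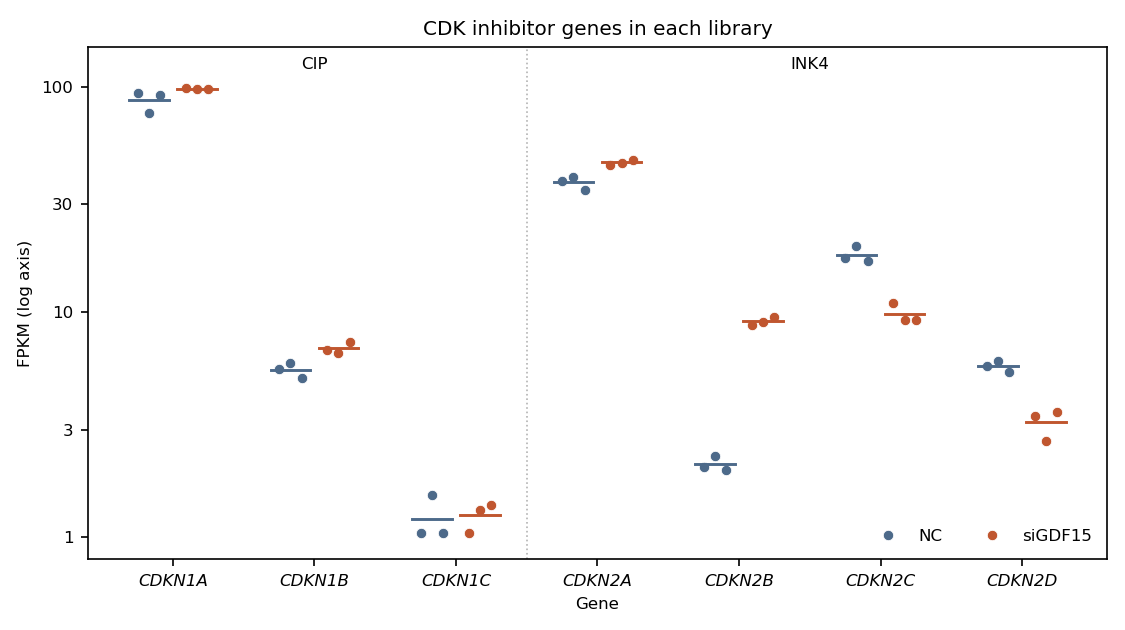
Level of each inhibitor gene in each library, in FPKM on a log axis; points are the 3 NC libraries and the 3 siGDF15 libraries, short lines are group means, and a dotted line separates CIP from INK4 genes. CDKN2B moved from 2.11 FPKM to the level of CDKN2C, and the points of CDKN1C overlap.

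**Figure D2:**
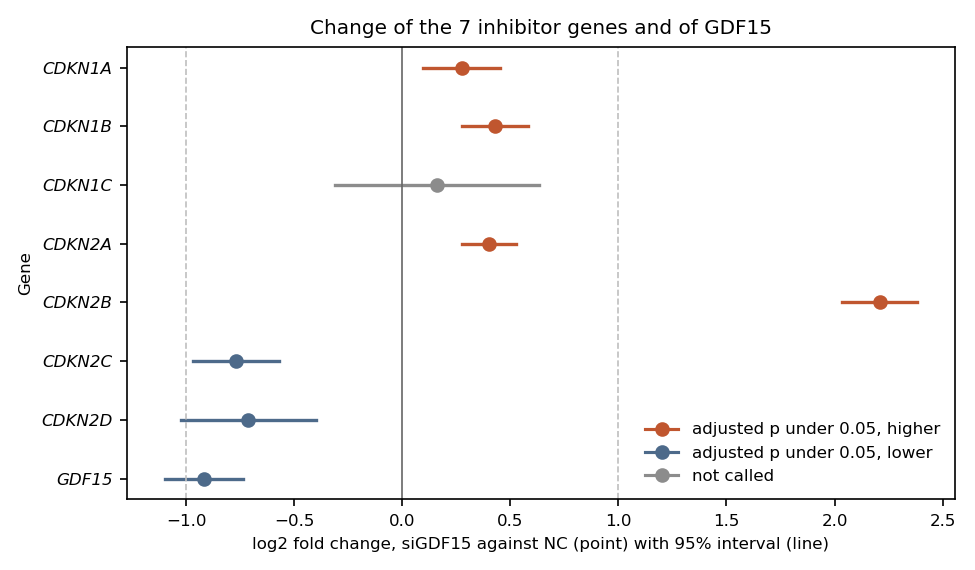
Log2 fold change (siGDF15 against NC) of the 7 inhibitor genes and of GDF15 from edgeR, with 95% confidence intervals as lines and dashed lines at 1 and -1. CDKN2B stands apart at 2.21, CDKN2C and CDKN2D lie below 0, and the interval of CDKN1C spans 0.

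CDKN1A encodes p21, which inhibits cyclin-CDK2 complexes and binds the replication clamp PCNA. It had the highest level of the 7 genes in every library. It stood at 93.3, 76.3 and 91.5 FPKM in NC and at 98.5, 97.9 and 97.5 FPKM in siGDF15. All siGDF15 libraries were above all NC libraries, and the NC libraries were spread more widely because replicate 2 was low. The means were 87.05 ± 9.34 and 97.9 ± 0.492 FPKM (SD, n = 3 each). The log2 fold change was 0.27 (standard error 0.077, 95% confidence interval 0.10 to 0.45, adjusted p = 0.014 from edgeR), or 1.21-fold. This call depended on the scaling of the libraries and on the filter. With counts scaled by their total, without TMM, the log2 fold change was 0.17 (adjusted p = 0.077 from edgeR), without a filter it was 0.22 (adjusted p = 0.095), and over all 16 alternatives the adjusted p ran from 0.0015 to 0.095. A total-count scaling moved the median of all tested genes to -0.099 and the share of higher genes among those called from 48.9% to 36.6%. CDKN1A (ENSG00000124762) lies on chromosome 6 from 36676460 to 36687337 on the plus strand (GRCh38). In GENCODE release 29 it shares 146 exon bases (4.79% of its own) with the minus-strand gene DINOL, which averaged under 0.1 FPKM in both groups. The stretch upstream of its RefSeq start is shown because p21 is the most abundant inhibitor transcript here, with GC boxes (GGGCGG, the letters to which Sp1-type factors bind) in capitals. The printed stretch is chr6:36678464-36678657, plus strand, GRCh38.p14. It lies inside the span of the gene, downstream of its farthest start, and ends before the first CDKN1A exon base of GENCODE release 29 that follows in the window.
CDKN1A upstream: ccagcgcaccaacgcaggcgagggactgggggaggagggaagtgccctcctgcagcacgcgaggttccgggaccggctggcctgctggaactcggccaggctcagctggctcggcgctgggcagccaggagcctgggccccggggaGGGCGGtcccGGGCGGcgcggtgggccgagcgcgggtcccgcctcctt

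CDKN1B encodes p27, which binds cyclin E-CDK2 and holds cells out of S phase. It was at 5.56, 5.92 and 5.11 FPKM in NC and at 6.79, 6.57 and 7.37 FPKM in siGDF15, with no overlap between the groups. Means were 5.53 ± 0.404 and 6.91 ± 0.412 FPKM (SD, n = 3 each), a log2 fold change of 0.43 (standard error 0.066, interval 0.28 to 0.58, adjusted p = 6.5e-04 from edgeR), or 1.34-fold. The gene (ENSG00000111276) spans chromosome 12 from 12685498 to 12722325 on the plus strand. The minus-strand gene GPR19 overlaps 10710 bases of that span, and its mean level was 0.182 FPKM in NC and 0.0503 FPKM in siGDF15. CDKN1C encodes p57, the imprinted member of the family. Its levels were 1.04, 1.54 and 1.05 FPKM in NC and 1.04, 1.33 and 1.39 FPKM in siGDF15. These overlap, and they rest on an estimated 48 to 72 read pairs a library, with the lowest number of any member. Its log2 fold change was 0.16 with a standard error of 0.21 (adjusted p = 0.52 from edgeR), and the 95% interval of -0.31 to 0.63 holds a fall as well as a rise. With 1 library left out it ran from 0.066 (without NC replicate 1) to 0.36 (without NC replicate 2), and none of these fits called CDKN1C. CDKN1C (ENSG00000129757) lies on chromosome 11 from 2883213 to 2885771 on the minus strand.

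CDKN2A and CDKN2B lie side by side on the short arm of chromosome 9, both on the minus strand, 8.03 kb apart. CDKN2A (ENSG00000147889, 21967752 to 21994873) yields p16INK4a, an inhibitor of CDK4 and CDK6, and from another first exon ARF, which binds MDM2. Levels of CDKN2A were 38.2, 39.8 and 34.9 FPKM in NC and 45.0, 46.1 and 47.5 FPKM in siGDF15. Every siGDF15 library was above every NC library. Means were 37.6 ± 2.50 and 46.2 ± 1.23 FPKM (SD, n = 3 each), a log2 fold change of 0.40 (standard error 0.055, interval 0.27 to 0.53, adjusted p = 3.3e-04 from edgeR), or 1.32-fold. The table gives 1 value per gene, so transcripts of p16INK4a and of ARF were not separated.

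CDKN2B (ENSG00000147883, chromosome 9 from 22002903 to 22009305) encodes p15, an inhibitor of CDK4 and CDK6 that TGF-beta is known to induce. It showed the largest change of the 7 genes. It was at 2.06, 2.30 and 1.98 FPKM in NC and at 8.76, 8.996 and 9.52 FPKM in siGDF15. The lowest siGDF15 library was above the highest NC library by more than the whole range of either group. Means were 2.11 ± 0.166 and 9.09 ± 0.391 FPKM (SD, n = 3 each). The log2 fold change was 2.21 (standard error 0.076, interval 2.04 to 2.38, adjusted p = 4.6e-07 from edgeR), or 4.62-fold. Of the 11867 tested genes, 33 had a higher log2 fold change than CDKN2B. Leaving out any 1 library gave 2.17 to 2.27.

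The sequences upstream of CDKN2A and CDKN2B are shown because the neighbours rose by such different amounts. GC boxes are in capitals, also where they lie on the other strand (CCGCCC). The CDKN2A stretch is chr9:21995325-21995574, minus strand, before the start of the ARF transcript, and holds none. The window at the p16INK4a start of CDKN2A, which is not shown, has 2 GC boxes, as has that of CDKN2B. A link between these letters and the unequal rise was not tested. The CDKN2B stretch is chr9:22009364-22009555, minus strand, and holds a pair (GRCh38.p14, RefSeq starts, written 5′ to 3′ on the strand of the gene).
CDKN2A upstream (ARF): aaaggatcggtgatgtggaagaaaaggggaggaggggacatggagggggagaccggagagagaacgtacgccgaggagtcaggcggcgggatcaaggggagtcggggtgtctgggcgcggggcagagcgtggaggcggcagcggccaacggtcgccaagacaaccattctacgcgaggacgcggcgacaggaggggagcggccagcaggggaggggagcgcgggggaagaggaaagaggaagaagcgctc
CDKN2B upstream: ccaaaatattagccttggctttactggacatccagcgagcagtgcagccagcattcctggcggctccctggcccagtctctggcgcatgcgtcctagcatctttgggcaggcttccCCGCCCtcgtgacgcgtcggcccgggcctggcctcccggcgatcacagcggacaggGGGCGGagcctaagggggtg

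CDKN2A and CDKN2B are near copies in part of their coding sequence, so reads from there are the ones that could be counted for the wrong neighbour. Of all stretches of 75 bases in their GENCODE release 29 transcripts, 0.130% in CDKN2A and 0.148% in CDKN2B were shared, and no stretch of 150 bases, the read length, was. No stretch of either length was shared among the other members. The plus-strand gene CDKN2B-AS1 spans all of CDKN2B and overlaps 735 bases at the upstream end of CDKN2A. In GENCODE release 29 it shares 341 exon bases with CDKN2A, 7.88% of the exon bases of that gene, and none with CDKN2B. The libraries mark the strand, but the strand setting of the counting is not given in the sources used here. CDKN2B-AS1 itself, with means of 0.433 ± 0.0358 (NC) and 0.346 ± 0.0198 FPKM (siGDF15; SD, n = 3 each), was below the level tested.

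CDKN2C and CDKN2D went the other way. CDKN2C encodes p18 and CDKN2D p19INK4d, inhibitors of CDK4 and CDK6 whose transcripts are known to peak in cycling cells. CDKN2C was at 17.4, 19.6 and 16.7 FPKM in NC and at 10.9, 9.17 and 9.24 FPKM in siGDF15. Every siGDF15 library lay below every NC library. Means were 17.9 ± 1.49 and 9.77 ± 0.988 FPKM (SD, n = 3 each), a log2 fold change of -0.77 (standard error 0.086, interval -0.97 to -0.57, adjusted p = 1.0e-04 from edgeR), a fall of 41.3%. CDKN2C (ENSG00000123080) spans chromosome 1 from 50960745 to 50974634 on the plus strand. CDKN2D was at 5.73, 6.06 and 5.43 FPKM in NC and at 3.47, 2.69 and 3.59 FPKM in siGDF15. The groups were apart, with siGDF15 replicate 2, the library of lowest depth, the lowest. Means were 5.74 ± 0.317 and 3.25 ± 0.492 FPKM (SD, n = 3 each), a log2 fold change of -0.71 (standard error 0.14, interval -1.03 to -0.40, adjusted p = 0.0020 from edgeR), a fall of 39.0%. Without siGDF15 replicate 2 the log2 fold change of CDKN2D was -0.60. The CDKN2D gene (ENSG00000129355) lies on chromosome 19 from 10566460 to 10569059 on the minus strand. Its upstream stretch is shown as the counterpart, among the genes that fell, of the CDKN2B stretch. It is chr19:10569060-10569229, minus strand, GRCh38.p14, with GC boxes in capitals.
CDKN2D upstream: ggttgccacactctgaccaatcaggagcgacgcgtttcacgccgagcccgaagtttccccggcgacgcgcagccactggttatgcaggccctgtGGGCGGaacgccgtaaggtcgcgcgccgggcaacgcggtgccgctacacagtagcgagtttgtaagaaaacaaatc

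RefSeq promoter windows of 300 bases (250 before a start to 50 after) were found for 6 of the 7 genes, 9 windows in all, with more than 1 start for CDKN2A and CDKN2C. Each window was searched on both strands for the GC box GGGCGG, for E2F sites (TTTCCCGC, or TTTCGCGC, or TTTGCCGC, or TTTGGCGC) and for the cell cycle element CHR (TTTGAA or TTCGAA). GC boxes were present in 7 of the 9 windows, and in 45.0% of 35116 windows of all genes. Their number was 4 in CDKN1A, 1 in CDKN1B, 2 in CDKN2B and 3 in CDKN2D. In CDKN2A they were 2 at the p16INK4a start and 0 at the ARF start. In CDKN2C the number was 0, 6 and 1 at its 3 starts. The E2F letters were in none of the 9 windows and in 3.31% of all windows, and the CHR letters were in none and in 16.4%. These matches describe the letters in these windows and locate no bound factor.

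The order of levels differed in the lower ranks. In NC it ran CDKN1A, CDKN2A, CDKN2C, CDKN2D, CDKN1B, CDKN2B, CDKN1C, and the libraries of CDKN2D and CDKN1B overlapped while all other neighbours in the order were apart. In siGDF15 it ran CDKN1A, CDKN2A, CDKN2C, CDKN2B, CDKN1B, CDKN2D, CDKN1C, with an overlap between CDKN2C and CDKN2B alone. Among the mean levels of all tested genes, CDKN2B stood at the 17.4th percentile in NC and the 66.2nd in siGDF15. CDKN1A stood at the 97.3rd and 97.6th percentile and CDKN2A at the 92.4th and 94.2nd. CDKN2C stood at the 81.4th and 68.2nd, and CDKN2D at the 48.3rd and 32.9th.

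In FPKM without TMM scaling, the sum of the 4 INK4 genes overlapped between the groups, while its make-up differed. The TMM factors were higher in NC, so TMM scaling would raise the siGDF15 sums relative to those of NC. Sums with that scaling were not tested, and shares do not depend on it. The INK4 sum takes in the whole CDKN2A value, with any transcripts of ARF. It was 63.4, 67.8 and 59.1 FPKM in NC and 68.2, 66.9 and 69.8 FPKM in siGDF15 (two-sided exact permutation p = 0.2). CDKN2B made up 3.24, 3.39 and 3.36% of it in NC and 12.8, 13.4 and 13.6% in siGDF15. The share of CDKN2C went from 28.2 ± 0.726% to 14.3 ± 1.49% (SD, n = 3 each). That of CDKN2D went from 9.06 ± 0.124% to 4.75 ± 0.638%, and that of CDKN2A from 59.4 ± 0.782% to 67.6 ± 1.43%. For each of these shares the groups were apart, with an exact permutation p of 0.1, the smallest that 3 against 3 libraries allow, and 0.175 when adjusted over 14 sums and shares. The CIP sum went from 93.8 ± 8.75 to 106 ± 0.299 FPKM (SD, n = 3 each, exact permutation p = 0.1). CDKN1A held 92.7% of the CIP sum in NC and 92.3% in siGDF15 (exact permutation p = 0.6).

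**Figure D3:**
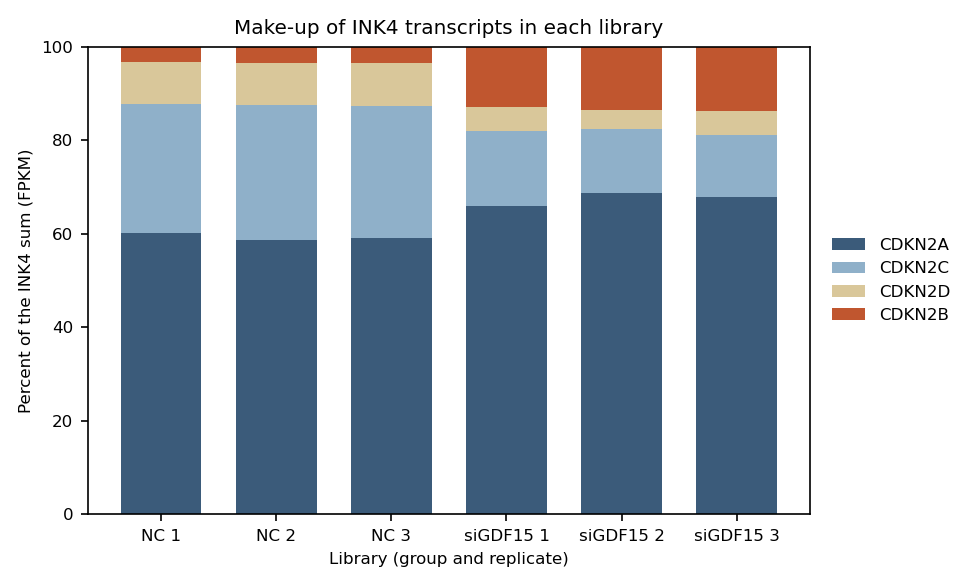
Share of each INK4 gene in the summed FPKM of the 4 INK4 genes, in percent, as 1 stacked bar per library from 0 to 100%. The CDKN2B segment takes 3.24 to 3.39% of the 3 NC bars and 12.8 to 13.6% of the 3 siGDF15 bars, while the segments of CDKN2C and CDKN2D are smaller there.

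A ratio within a library does not depend on how libraries are scaled. CDKN2B to CDKN2A was 0.0538, 0.0577 and 0.0568 in NC and 0.194, 0.195 and 0.201 in siGDF15. After knockdown it was 3.51-fold higher (log2 difference 1.81) and the groups were apart. CDKN1A to CDKN1B was 16.8, 12.9 and 17.9 in NC and 14.5, 14.9 and 13.2 in siGDF15, with an overlap (exact permutation p = 0.4). The INK4 sum includes the whole of CDKN2A, from which ARF transcripts were not separated. Its ratio to CDK4 plus CDK6, the targets of INK4 proteins, was 0.906, 0.996 and 0.808 in NC and 1.21, 1.12 and 1.21 in siGDF15. This ratio was 1.31-fold higher, with the groups apart. In FPKM without TMM scaling, CDK4 plus CDK6 went from 70.4 ± 2.57 to 57.98 ± 1.78 (SD, n = 3 each) while the INK4 sum overlapped. TMM scaling would raise siGDF15 relative to NC in both sums, so how the change divides between them depends on the scaling. The CIP sum relative to CDK2 was 4.34, 3.55 and 4.26 in NC and 12.0, 13.1 and 13.3 in siGDF15, 3.18-fold higher. The level of CDK2 itself went from 23.2 ± 0.382 to 8.29 ± 0.465 FPKM (SD, n = 3 each), so the larger part of that change came from the denominator. Another 3 ratios were chosen after the values were seen. CDKN2B to CDKN2C went from 0.118 ± 0.000560 to 0.938 ± 0.120, CDKN2A to CDKN2C from 2.10 ± 0.0821 to 4.76 ± 0.555, and CDKN2B to its neighbour MTAP from 0.458 ± 0.0573 to 3.72 ± 0.420 (SD, n = 3 each). Of the planned ratios, all but CDKN1A to CDKN1B had an exact permutation p of 0.1. Adjusted over all 7 ratios it was 0.117, a value lowered by counting the 3 added ones. Those 3 pair genes already seen to be apart in opposite directions, so their p of 0.1 was fixed in advance and is no test. The same limit applies to the planned ratio of the CIP sum to CDK2, whose parts were also apart in opposite directions.

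The kinases and cyclins that the inhibitors bind were mostly lower. Of 10 such genes 9 were tested, 7 fell, none rose and 2 did not pass, with a median log2 fold change of -0.96, beside 31.4% of all tested genes that fell. CCNA2, the S-phase partner of CDK2, fell by 1.91 on the log2 scale, CDK1 by 1.87 and CCNE2 by 1.62. CDK2 fell by 1.38 and CCND1, which encodes cyclin D1, by 0.96. The INK4 targets CDK4 and CDK6 moved less: CDK4 fell by 0.20 (adjusted p = 0.0087 from edgeR), and CDK6 had a log2 fold change of 0.20 (adjusted p = 0.095 from edgeR). All 3 genes for pocket proteins, the substrates of these kinases, fell: RBL1 by 1.58, RB1 by 0.39 and RBL2 by 0.30 on the log2 scale.

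**Figure D4:**
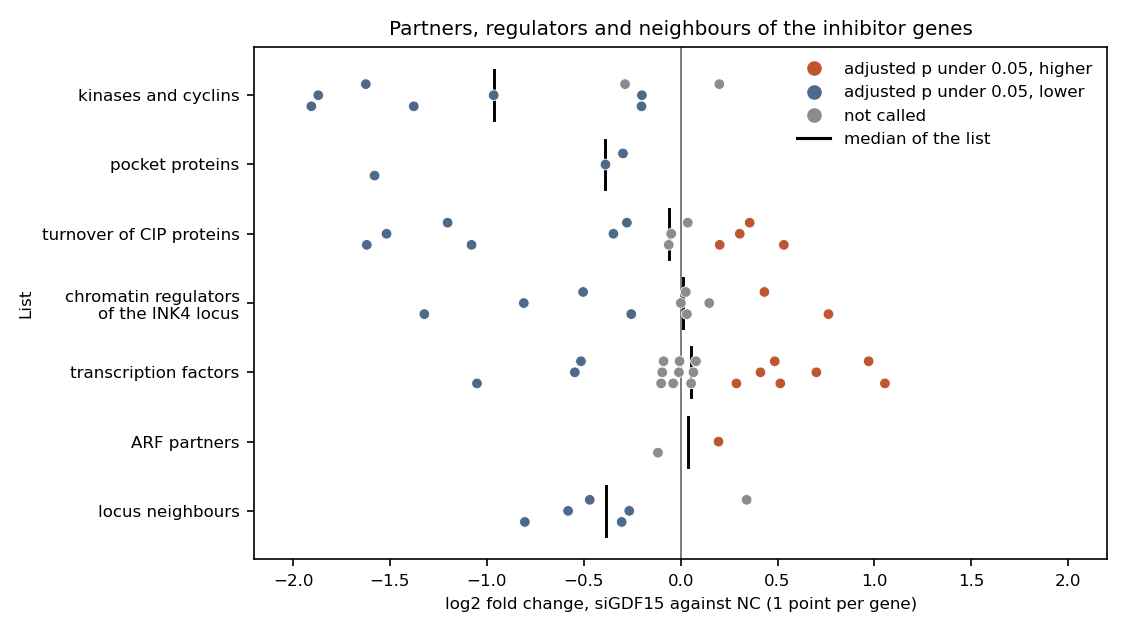
Log2 fold change (siGDF15 against NC) of the tested genes in 7 lists of partners, regulators and neighbours of the inhibitor genes, 1 point per gene, coloured by the edgeR call, with the median of each list as a vertical line. The kinases and cyclins reach -1.91, while the other lists hold genes on both sides of 0 or close to it, apart from the pocket proteins and most neighbours.

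Genes that control the amount of CIP proteins moved both ways. Of 13 genes of their turnover, 4 rose, 6 fell and 3 did not pass, with a median log2 fold change of -0.06. The share called was 76.9%, beside 61.4% of all tested genes (30.0% higher and 31.4% lower). SKP2 and CKS1B, which hand p27 to its ubiquitin ligase, fell by 1.08 and 1.52 on the log2 scale. DTL, which directs p21 to a CUL4 ligase on chromatin-bound PCNA, fell by 1.62, and PCNA by 1.20. RCHY1, a ubiquitin ligase for p27, rose by 0.53, and DDB1 and CUL4B, parts of CUL4 ligases, rose by 0.36 and 0.30. Protein was not measured in these files.

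Of 10 chromatin regulators of the INK4 locus, 2 rose, 4 fell and 4 did not pass, with a median log2 fold change of 0.01. The share called was 60.0%, beside 61.4% of all tested genes. The PRC2 genes EZH2, EED and SUZ12, which can silence the locus in growing cells, fell by 1.32, 0.81 and 0.50. In the NC cells here CDKN2A of that locus stood at a mean of 37.6 FPKM. BMI1 of PRC1 fell by 0.25. KDM6B, a demethylase that removes the PRC2 mark, rose by 0.76, and RING1 by 0.43. Of 19 genes for transcription factors that act on inhibitor genes, 7 rose, 3 fell and 9 did not pass, with a median of 0.05. The share called was 52.6%, below that of all tested genes. FOXO4, EGR1 and ETS2 rose by 1.05, 0.97 and 0.70, and SMAD3 by 0.51. The other SMAD genes of the list, which carry TGF-beta signals as SMAD3 does, did not pass: SMAD2 had a log2 fold change of 0.079 (adjusted p = 0.23 from edgeR) and SMAD4 of -0.0057 (adjusted p = 0.94). ID1, which represses CDKN2A through ETS factors, fell by 1.05, CEBPA by 0.55 and SP1 by 0.51. MYC, which represses CDKN1A and CDKN2B, had a log2 fold change of -0.01 (adjusted p = 0.97 from edgeR). Of the ARF partners, MDM2 had a log2 fold change of 0.20 at an adjusted p of 0.0496 from edgeR with overlapping libraries, and NPM1 of -0.12 (adjusted p = 0.30). MDM2 lost its call without TMM, without NC replicate 1 and without any 1 of the siGDF15 replicates, when no gene of this list was called.

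Genes beside the inhibitors moved with them in some places and against them in others. On chromosome 9, MTAP, 30.1 kb from CDKN2A on its other side, fell from 4.63 ± 0.210 to 2.46 ± 0.219 FPKM (SD, n = 3 each, log2 fold change -0.80, adjusted p = 3.0e-05 from edgeR), while CDKN2A and CDKN2B rose. FAF1, 0.478 kb from CDKN2C, fell by 0.30 on the log2 scale and KRI1, 0.429 kb from CDKN2D, by 0.27. On their other side RNF11 rose by 0.47, 262 kb from CDKN2C, and AP1M2 by 0.75, 3.61 kb from CDKN2D. The tested neighbours of CDKN1A, SRSF3 and PPIL1, fell by 0.40 and 0.36. CREBL2 beside CDKN1B rose by 0.71, and DDX47 had a log2 fold change of -0.14 (adjusted p = 0.17 from edgeR). Beside CDKN1C neither SLC22A18 (0.34, adjusted p = 0.20) nor TSSC4 (0.11, adjusted p = 0.39) passed. Of the list of 13 locus neighbours, 6 were tested, 5 fell and none rose, with a median of -0.39, beside 31.4% of all tested genes that fell. RNF11, AP1M2 and CREBL2, which rose, are not on that list. PHLDA2 and NAP1L4, which lie in the imprinted region of CDKN1C, fell by 0.58 and 0.47. Among genes below the level tested, in a fit of 19360 genes with a mean of at least 0.1 FPKM, KCNQ1OT1, the long noncoding RNA of the same imprinted region, went from 0.127 ± 0.00389 to 0.368 ± 0.0285 FPKM (SD, n = 3 each, log2 fold change 1.61, adjusted p = 9.8e-07 from edgeR). In the same fit CDKN2B-AS1 had a log2 fold change of -0.24 (adjusted p = 0.11 from edgeR).

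The genes whose pattern over the 6 libraries was most like that of a member were found by Pearson's r of log2 CPM (counts scaled to a common library size). The libraries form 2 groups, so for a gene that differs between them r is mainly the difference between the groups. For CDKN2B these were GJD3 (r = 0.9999) and the histone gene H2AC6 (r = 0.9996), and 456 genes had an r over 0.99. For CDKN2A they were PTPA and LGMN, for CDKN1B RIC1 and CPT2, and for CDKN1A C3orf52 and AAR2. For the genes that fell they were CCDC14 and TRIM34 (CDKN2C) and KIAA0586 and TAF2 (CDKN2D). CDKN1C, whose groups overlapped, had no gene with an r over 0.99, and TMEM127 came closest (r = 0.982), before OR2A20P (r = 0.979).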

How the data were processed

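Poly(A) RNA from 3 NC and 3 siGDF15 samples labelled KHM-5M was sequenced as read pairs of 150 bases from libraries that mark the strand (dUTP). Per the labels, reads were trimmed with fastp, aligned with HISAT2 to GRCh38 and quantified with StringTie. Versions, options and the annotation release are not given in the sources used here. The authors deposited FPKM per gene, scaled by transcript length and mapped fragments, and expected counts that are whole numbers derived from coverage. A read pair was taken as 4 counts, the most common value among counts of 1 to 20 (15.6% of them). Numbers of read pairs are therefore estimates.

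Expected counts were tested with the quasi-likelihood test of edgeR 4.0.16 (R 4.3.3) with TMM scaling, on 11867 of 34738 genes with a mean of at least 1 FPKM, two-sided, with Benjamini-Hochberg adjustment over all tested genes and a threshold of 0.05. The script recovered known changes in simulated counts. In that simulation few genes changed, as many up as down and by a log2 fold change of at least 1. It therefore does not test the scaling in data where most genes are called, nor changes as small as that of CDKN1A. Standard errors come from the fold change and its F statistic. Single sums, shares and ratios were compared with exact permutation tests over the 6 libraries. Alternatives were other scalings, filters, limma 3.58.1 on log2(FPKM + 1) and log2(FPKM + 0.1), DESeq2 1.42.0, a replicate block and leaving out each library. No pairing of the libraries by replicate number was detected, so the main fit used no block.

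Named genes were the 7 inhibitor genes, GDF15, up to 3 called genes in each direction of each list of partners, regulators and neighbours and those with a role in the text, the nearest tested gene on either side of each member and the 2 most similar genes. Members and lists were chosen with earlier results of these data known. Promoter windows came from RefSeq (GRCh38.p14), and shared runs and exon overlaps from GENCODE release 29, which differs from the annotation of the table at some ends. No promoter window was used for CDKN1C. TSHR was not analysed here. Some genes and a sequence of these lists and loci are not reported here. Pathway columns of the authors were used only to count pathways. No column of the authors' fold changes or p-values was used.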

Additional observations from a re-analysis of the deposited data

How the results depend on the processing

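Across 16 alternatives (other scalings, filters and tests, a replicate block, and each library left out), CDKN1B, CDKN2A, CDKN2B, CDKN2C, CDKN2D and GDF15 kept their direction and call, and CDKN1C was never called. CDKN1A kept its direction, but its call was lost without TMM (log2 fold change 0.173), without a filter (0.220) and in limma on log2(FPKM + 1) (0.174) and on log2(FPKM + 0.1) (0.176). Apart from the fit without a filter, these fits use no TMM factors. Their median log2 fold change over all tested genes was -0.081 to -0.0997, beside 0.0026 in the main fit. The cause of the lost calls was not tested. CDKN1A was called in every fit with 1 library left out, from 0.184 without NC replicate 2, its lowest library, to 0.328 without NC replicate 1. With a log2 fold change of at least 1 required as well, 1 inhibitor gene and 927 of all tested genes were called. The count of called ARF partners was 0 without TMM, with RLE scaling, with a filter at 0.1 FPKM, without a filter and in both limma fits, and 0 to 1 with 1 library left out. Counts of the other lists stayed within 1.5 times. Same-numbered NC and siGDF15 libraries had correlations of their deviations of 0.0276, -0.0753 and 0.0458, so the numbers were not taken as pairs. The replicate block called 6906 genes against 7286, with 6 inhibitor genes among them, and changed no call on a member. With the replicate block the log2 fold change of CDKN1A was 0.281. The fewest read pairs behind a member were an estimated 48, for CDKN1C, whose interval limits what can be said of it.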
